A study of Mus musculus with 9 samples.

Results

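Satellite cells, the stem cells of adult skeletal muscle, were profiled from wild type (WT) mice, and the question here was which genes gave strong, weak or background signal in these cells as sorted. The members were the arrays labelled WT, 3 of the 9 arrays of the series. The other arrays came from Bmi1-deficient mice and were not used. The WT mice carried no deletion, were of FVB strain background and 2 months old, and were labelled male. They served as controls in a series on how geriatric muscle stem cells lose reversible quiescence. Cells from dissociated skeletal muscle were sorted for integrin alpha-7 and CD34, and against a lineage panel of CD31, CD45, CD11b and Sca1. Their RNA was amplified as a whole transcriptome, and its Cy3-labelled cDNA was read on 1-colour Agilent arrays with 60-base probes. The titles call the 3 arrays biological replicates, and nothing says whether each came from 1 mouse or a pool, so the spread between them may be partly technical.

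In resting muscle a satellite cell lies between the fibre and its basement membrane and rarely divides. The transcription factor Pax7 marks it, and Notch signalling and the calcitonin receptor help to hold it at rest. When muscle is damaged the cell turns on Myod1, divides and gives progeny that fuse into fibres or return to the niche.

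Each array held 62976 spots, of which 59305 were not controls and represented 55681 probes under 36406 names (GeneNames), which include predicted transcripts and intergenic regions. The scanner software marked 71.9% to 74.8% of the spots of an array as well above background, and no spot was saturated. Values below are log2 of the processed signal relative to the array's 75th percentile, so that a value of 0 lies at that percentile. Each GeneName is represented by its probe with the highest mean, and is ranked among all GeneNames, with 100 as the highest signal. Probes differ in how well they hybridise and amplification can distort levels, so a rank compares signals and does not measure the amount of RNA. Of 36406 GeneNames, 25693 (70.6%) had a probe well above background on all 3 arrays, 7666 (21.1%) had none on any array, and 3047 lay between. The 1820 highest (5%) are called strong. Their lower edge lay at 3.73, where Uba1 was the last inside and Il11ra1 the first outside. The 12846 GeneNames well above background on all 3 arrays but below the median of that set (-0.68) are called weak. Means ran from 8.36 to -8.24 with a median of -2.44, and values at the low end are surrogates set by the scanner software, which have no order.

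The sex label was checked first. Xist, the RNA that silences 1 X chromosome in female cells, gave 5.83, 5.81 and 5.72 on the 3 arrays, a percentile of 99.0. Of the Y-linked genes, Ddx3y, Kdm5d, Uty, Usp9y, Zfy1 and Zfy2 were not well above background on any array. Eif2s3y gave -1.92, -1.98 and -1.72, and Sry gave 0.00, -0.22 and -0.26, both well above background on all 3 arrays. On Xist and on 6 of 8 Y-linked genes the arrays therefore went against the label male, and the sex of the cells was not settled here.

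The highest signals came mostly from probes of repeated sequence, and the probe sequences show it. A probe was counted as a repeat probe if it held at least 20 bases of a tandem repeat with a unit of up to 4 bases. It was also counted if its 16-base words together occurred in probes of at least 20 other GeneNames. This limit was chosen after the data were seen. In the probes that follow, capitals mark the tandem run or the words shared with probes of at least 5 other GeneNames. They are given as 5′ to 3′ with mm9 coordinates of the array design. For 2 genes, the strong probe is set beside another probe of the same gene.
Sp110, chr1:87473677-87473736, minus strand: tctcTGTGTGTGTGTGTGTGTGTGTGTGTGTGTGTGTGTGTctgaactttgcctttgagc
Sp110, chr1:87473511-87473570, minus strand: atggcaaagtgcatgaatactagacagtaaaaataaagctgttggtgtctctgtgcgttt
F10, chr8:13056119-13056178, plus strand: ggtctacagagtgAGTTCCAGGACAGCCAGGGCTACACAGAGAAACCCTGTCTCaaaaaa
F10, chr8:13055774-13055833, plus strand: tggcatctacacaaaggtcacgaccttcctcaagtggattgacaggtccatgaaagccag
Elk1, chrX:20510521-20510580, minus strand: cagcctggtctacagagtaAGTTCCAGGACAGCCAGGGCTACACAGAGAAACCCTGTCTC
Slc10a1, chr12:82056539-82056598, minus strand: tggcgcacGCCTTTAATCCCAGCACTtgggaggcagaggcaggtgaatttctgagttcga
Intergenic region, chr17:39982106-39982165, plus strand: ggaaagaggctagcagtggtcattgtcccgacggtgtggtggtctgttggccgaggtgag

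Sp110, a nuclear body protein of immune cells, gave 7.99, 7.88 and 8.02 through the probe with the 37-base run of TG. Its other probe shown gave -4.51, -5.73 and -8.15 and was well above background on 2 arrays. The probe without the run was the lower one on every array. F10, coagulation factor X made by the liver, gave 8.03, 8.0 and 7.99 through a probe whose words together occurred under 30 other GeneNames. Its second probe lay in the same stretch of chromosome 8, and its words occurred under 1 other GeneName. That probe gave -7.95, -8.37 and -8.08 and was not well above background on any array. Elk1, a transcription factor of the serum response, likewise gave 7.96, 7.74 and 7.91 through the probe shown and -4.29, -4.26 and -4.46 through its other probe. The capitals in F10 and Elk1 spell the same block of bases, of the kind carried by B1 elements, short mobile elements that lie in many mouse transcripts. No repeat annotation was used here. Slc10a1, a bile acid transporter of the liver, gave 8.37, 7.99 and 8.32, and its other probe gave -1.99, -2.10 and -0.96. The words of its brighter probe together occurred under 15 other GeneNames, so that probe fell below the limit and was not counted as a repeat probe.

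Of the 25 highest GeneNames, 12 rested on a tandem repeat probe and 4 on a shared-sequence probe. The tandem group was Sp110, Pak4, Sgsh, AW555464, Sept3, Arl6ip6, Zcchc9, Madd, Ms4a4c, LOC100048345 and 2 probes without a name (A_55_P2048650 and A_55_P2142116). The shared-sequence group was 4930455C21Rik, AK140579, F10 and Elk1. A further 4 were intergenic regions of chromosome 17, and the last 5 were Slc10a1, Exosc2, Kctd14, Gm885 and the unnamed probe A_55_P2041121. Of the 25, 17 had more than 1 probe, and in 14 of these the brightest and dimmest probes lay over 4 log2 units apart.

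**Figure D1:**
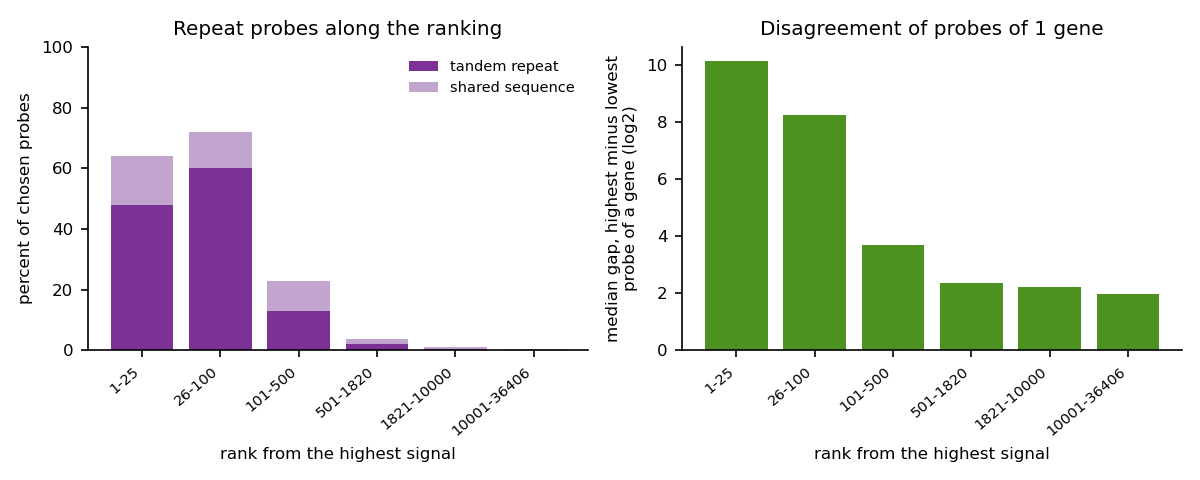
Left, the percentage of chosen probes that are repeat probes (tandem or shared sequence) in bands of rank from the highest signal; right, the median gap in log2 units between the brightest and dimmest probe of a GeneName in the same bands, over GeneNames with several probes. The share is 64.0% in ranks 1 to 25 and 0.2% beyond rank 10000, and the gap falls from 10.12 to 1.97.

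Repeat probes thinned out along the ranking. They made up 64.0% of the first 25 ranks, 72.0% of the next 75, 22.8% of the next 400 and 3.8% of the last 1320 strong ranks, against 1.0% of the chosen probes of all GeneNames. The gap between probes of 1 GeneName fell alongside, from a median of 10.12 log2 units in the first band to 2.37 in the last 1320 strong ranks. Without the 390 repeat probes, 9 of the 25 highest GeneNames stayed among the 25 highest, 6 had no probe left, and 1615 of the 1820 strong GeneNames stayed in the top 5%. The named genes then highest included Slc10a1, Exosc2 (a subunit of the RNA exosome), Kctd14, Cnnm3, Ttc38 and Nanog. Nanog, a pluripotency factor, gave 7.40, 7.36 and 7.40 through a probe whose words together occurred under 14 other GeneNames. Its other probe gave -6.02, -7.44 and -7.62 and was not well above background on any array. Triobp, an actin-binding protein, was also among them, and its probes lay 14.7 log2 units apart. Housekeeping genes followed closely: Rps16, a protein of the small ribosomal subunit, gave 7.29, 6.99 and 7.35, Ubb (ubiquitin) 7.20, 7.01 and 7.12, and Tpt1 (translationally controlled tumour protein) 7.10, 6.98 and 7.08.

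The chromosome 17 signals came from chr17:39960567-39992817 (mm9). The probe shown from it had no tandem run over 8 bases and no word shared with another GeneName. All 9 GeneNames with a chosen probe in the interval were strong, with means from 5.64 to 8.36. The brightest, the forward region of that whole interval, gave 8.48, 8.19 and 8.40. The reverse region of the same interval gave 8.13, 8.09 and 8.12. Both orientations were thus among the 4 highest of all GeneNames. In the mouse assembly this stretch is known for a copy of the ribosomal RNA precursor, which was not checked against an annotation of this build.

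Signal on both strands was also seen elsewhere, and 1 pair of probes shows how it looks. The following 2 probes belong to the forward and reverse records of an intergenic region on chromosome 12 and are each other's complement over all 60 bases.
Forward, chr12:82501144-82501203, plus strand: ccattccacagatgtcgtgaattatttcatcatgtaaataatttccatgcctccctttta
Reverse, chr12:82501144-82501203, minus strand: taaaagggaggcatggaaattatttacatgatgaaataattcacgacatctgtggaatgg
The forward probe gave 3.81, 3.62 and 3.84, and the reverse probe gave 4.20, 4.29 and 3.96. On every array the reverse probe was the higher. Across the array, 1803 pairs of probes on opposite strands overlapped by at least 30 bases. Their means correlated with a Pearson r of 0.875 and a Spearman rho of 0.866, with a median difference of 0.58, and the 2 probes had the same call (well above background on all arrays or not) in 86.0% of pairs. For 874 overlapping pairs on the same strand, r was 0.953, rho 0.951, the median difference 0.32 and the share with the same call 93.5%. Pairs share arrays, base composition and, on the same strand, sequence, so these are descriptions over probes and not over independent samples. Only 1 probe of the pair was well above background on all arrays in 252 opposite-strand pairs and in 57 same-strand pairs. Of 1067 intergenic regions recorded in both orientations, 911 (85.4%) were well above background on all 3 arrays in both, where 83.8% of the 4610 single records of such regions were. Which strand a signal came from was not tested, nor were annotated genes with an antisense partner.

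**Figure D2:**
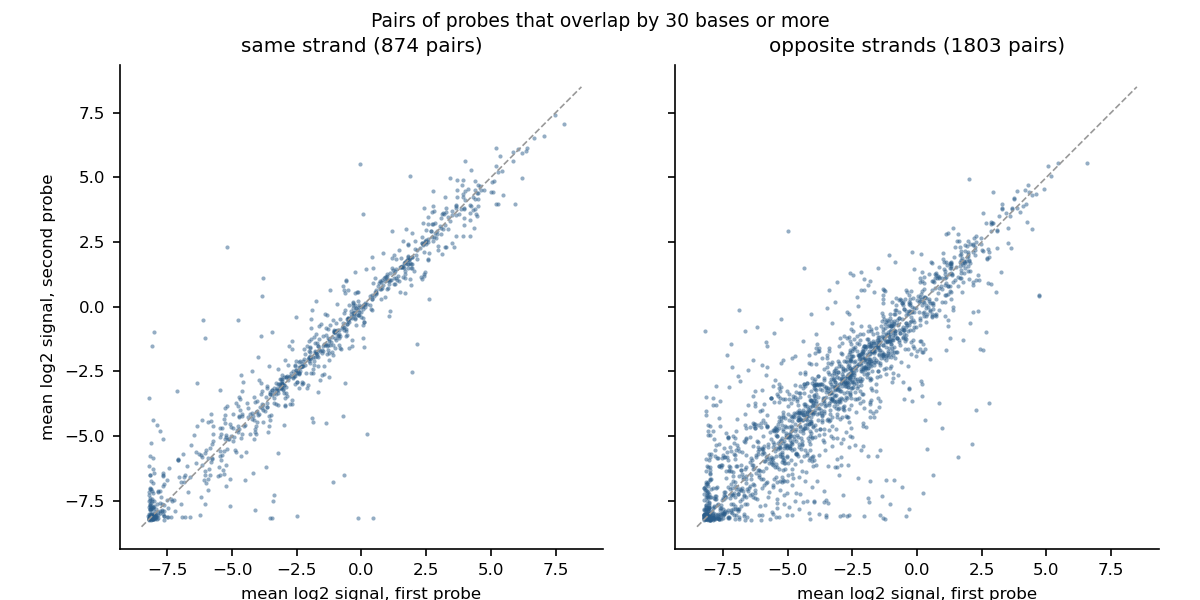
Mean log2 signal over the 3 WT arrays of 2 probes that overlap by 30 bases or more, on the same strand (left, 874 pairs) and on opposite strands (right, 1803 pairs); each point is a pair and the dashed line marks equal signal. Points follow the line in both panels, with a median difference of 0.32 on the same strand and 0.58 on opposite strands.

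The satellite cell identity was checked with 6 marker genes. All 6 were well above background on all 3 arrays, and 5 of them had percentiles of 83.6 to 93.2. None was in the strong band. Cdh15 (M-cadherin, which holds the cell to its fibre) gave 3.29, 3.22 and 3.19, or 3.23 ± 0.05 (SD, n = 3). Pax7 gave 3.0, 2.72 and 2.67, or 2.80 ± 0.18. The 2 surface proteins used for sorting followed, Cd34 at 2.64, 2.53 and 2.35 and Itga7 (the laminin receptor subunit) at 2.35, 2.35 and 2.16. Calcr, the calcitonin receptor, gave 1.39, 1.87 and 1.39. The SDs of these 5 markers ran from 0.05 to 0.28. Myf5, a myogenic factor that marks committed satellite cells, stood apart at -4.09, -2.35 and -4.04, a percentile of 41.6, with replicate 2 above the other arrays. Its single probe had a GC content of 15%, against 45% for the Pax7 probe. The probes of Pax7 (chr4:139294364-139294423, minus strand), Cdh15 (chr8:125391031-125391090, plus strand) and Calcr (chr6:3635940-3635999, minus strand) are shown because the identity check rests on them, and none held a repeat.
Pax7: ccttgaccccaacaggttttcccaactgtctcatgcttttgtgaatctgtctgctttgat
Cdh15: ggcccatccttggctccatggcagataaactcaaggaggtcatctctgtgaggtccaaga
Calcr: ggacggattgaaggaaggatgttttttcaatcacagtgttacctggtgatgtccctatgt

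A longer list of 32 other satellite cell genes was well above background on all 3 arrays in 32 of 32 cases, and 13 were strong. Its median percentile was 92.6, against 50 for all GeneNames, and 1 member, Eya1, rested on a repeat probe (7.67, 7.41 and 7.57 through 34 bases of GT, with no other probe). Fgfr1, a receptor for fibroblast growth factors, gave 6.81, 6.54 and 6.66. Dag1 (dystroglycan, which links the cell to laminin) gave 6.19, 6.24 and 6.05. Cd82, a tetraspanin of the myogenic lineage, gave 5.50, 5.34 and 5.30. The growth factor receptor Fgfr4 gave 5.51, 5.27 and 5.32, and the chemokine receptor Cxcr4 gave 5.30, 5.50 and 5.26. Ncam1 and Itgb1, 2 adhesion molecules of the cell surface, reached percentiles of 96.9 each, and the others in the strong band were Gpx3, Chrdl2, Egfr, Megf10 and Vcam1. The lowest were Pax3, the paralogue of Pax7, at -1.97, -1.92 and -1.51, Dbx1 at -1.36, -2.33 and -1.09, and Eya4 at -0.13, 0.00 and -0.07. Probes of 1 gene could disagree: the Egfr probe used gave a mean of 4.05, while its others gave 1.05 and -0.98.

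**Figure D3:**
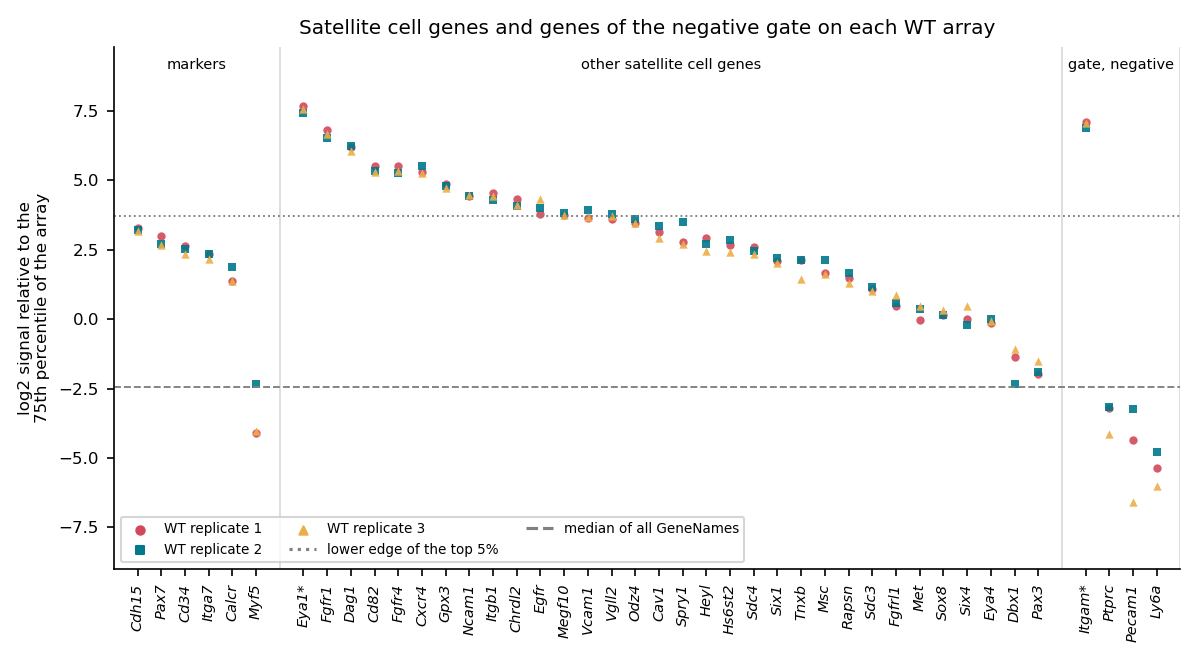
Log2 signal relative to the array's 75th percentile for the 6 markers, 32 other satellite cell genes and 4 genes of the negative gate, with 1 symbol for each of the 3 WT arrays; asterisks mark repeat probes, the dotted line the lower edge of the top 5% (3.73) and the dashed line the median of all GeneNames (-2.44). The arrays overlap closely for most genes, and Myf5 and the negative gate genes other than Itgam lie below the dashed line, except for Myf5 on replicate 2.

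The genes of the negative gate gave low signal except where a repeat probe stood in. Ptprc (CD45) gave -3.21, -3.18 and -4.15 and was well above background on all 3 arrays. Pecam1 (CD31) gave -4.36, -3.24 and -6.60, and Ly6a (Sca1) gave -5.35, -4.79 and -5.99, each well above background on some arrays only. Itgam (CD11b, an integrin of myeloid cells) ranked at 99.7 with 7.11, 6.88 and 7.08. The 3 probes of Itgam on chromosome 7, all on the plus strand, are shown because that rank rests on the first of them.
Itgam, chr7:135261755-135261814: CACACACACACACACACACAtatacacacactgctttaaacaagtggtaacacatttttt
Itgam, chr7:135260275-135260334: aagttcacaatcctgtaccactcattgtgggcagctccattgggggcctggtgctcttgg
Itgam, chr7:135212140-135212199: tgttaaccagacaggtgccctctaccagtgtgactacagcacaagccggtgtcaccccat
The first probe opens with 20 bases of CA and gave the high values. The second gave -2.80, -2.88 and -3.11 and the third -3.05, -3.17 and -3.42. Without repeat probes Itgam ranked at 46.3.

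Lists of markers of other cells had lower median percentiles than the satellite cell markers. In bulk samples fewer cells of a type and less RNA per cell cannot be told apart. Of 22 endothelial markers, 14 were well above background on all 3 arrays, 4 on none, and none was strong. Over all GeneNames these shares were 70.6%, 21.1% and 5%, which are also the reference for the lists below. The endothelial list had a median percentile of 40.8 and a range of 11.1 to 84.4. The highest was Tek, the angiopoietin receptor, at 1.89, 1.73 and 1.39. Fabp4, a fatty acid carrier shared with fat cells, gave -0.26, 1.81 and -0.72, higher on replicate 2. Kdr, a receptor for vascular growth factor, gave -0.14, -0.30 and -0.42 through 1 probe and -5.40, -3.30 and -8.10 through another. Sox17, Sox18, Erg and Robo4 were not well above background on any array. As deviations from the mean of the 3 arrays, the endothelial list had medians of -0.28, 0.24 and -0.15, the larger side on replicate 2.

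Of 23 macrophage and myeloid markers, 13 were well above background on all 3 arrays and 5 on none (Mrc1, Ccr2, Cd163, Lyz2 and C1qc). Over all GeneNames these shares were 70.6% and 21.1%. The median percentile of the list was 36.3. Csf1r, the receptor of macrophages for their growth factor, gave 2.33, 2.27 and 2.19, though its probes lay 6.28 log2 units apart. Lymphoid markers had a median percentile of 30.5, with 9 of 19 well above background on all arrays. Thy1, which T cells share with connective tissue cells, was the highest at 4.21, 3.95 and 3.78, followed by Cd4, Nkg7 and Cd8a. The T cell genes Cd3d and Cd3g, the B cell gene Ms4a1, Klrb1c and Il7r were not well above background on any array. Cd8a gave -1.87, -2.24 and -2.11 through 1 probe and was not well above background on any array through its other. The same held for Nkg7, with -1.33, -1.29 and -1.15 through 1 probe and background on every array through its other. Erythroid markers were measured for 9 genes and 6 were well above background on all arrays: Tfrc, the transferrin receptor, gave -0.70, -0.86 and -0.15, Alas2 -1.58, -1.61 and -2.49, Hba-a1 -2.87, -3.13 and -3.31, Klf1 -2.88, -3.46 and -3.41, Epor -3.73, -3.17 and -3.53, and Slc4a1 -3.92, -3.89 and -4.51. Hbb-b1 and Ahsp were not well above background on any array.

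Connective tissue and support cell lists reached higher. Fibro-adipogenic markers had a median percentile of 76.3 with 16 of 20 well above background on all arrays, against 70.6% of all GeneNames. Col3a1 gave 6.20, 6.25 and 6.18 and Col1a2 gave 4.17, 4.45 and 4.59, both fibrillar collagens, and Igfbp6 and Gsn came next. The defining receptor Pdgfra was not well above background on any array, and Ly6a and Osr1 on some arrays only. Mural markers had a median percentile of 64.6. Mcam, led by a tandem repeat probe, gave 6.81, 6.70 and 6.74 and ranked at 86.4 without repeat probes, and Notch3, Acta2 and Des were strong or close to it. Kcnj8 and Abcc9, channel subunits of pericytes, ranked at 46.5 and 45.9, and Anpep was not well above background on any array. Glial markers had a median percentile of 65.6, with the myelin protein Pmp22 (4.86, 4.86 and 5.02) in the strong band, then Ngfr and Egfl8, and Foxd3, Gpr17 and Cdh19 at the bottom. Tenocyte markers had a median percentile of 51.1, with Egr1, Chodl, Egr2 and Scx highest and Tnmd, Kera and Col11a1 lowest. Adipocyte markers had a median percentile of 48.5, with Acaca, Scd1 and Lipe highest and Cfd, Lep and Ucp1 lowest. The part of such cells in any list of these arrays was not tested.

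Genes of growth and protein supply made up the strongest families. Of 78 ribosomal protein genes, 76 were strong and 78 were well above background on all 3 arrays, with a median percentile of 98.7, where 5% of all GeneNames are strong. The highest were Rps16, Rpl41 (6.72, 6.52 and 6.86), Rps15 (6.76, 6.53 and 6.81) and Rpl10a (6.71, 6.59 and 6.73). The exceptions were Rps19 at a percentile of 90.7 and Rpl21 at 67.7, and Rpl22 was the lowest inside the strong band. Ribosomal protein genes have many processed pseudogene copies, so their signals may be shared. Translation factors had a median percentile of 94.4 and 15 of 36 strong, led by Tpt1, Eef1a1 (5.92, 5.94 and 5.97), Eef1d and Eef1g. Their lowest members were the initiation factors Eif4g2, Eif3a and Eif5b, the last at -3.59, -3.33 and -2.64.

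The proteasome list had a median percentile of 94.8 with 31 of 31 well above background on all arrays and 15 strong. Psmc3, Psmc5 (2 of its ATPases), Psmd3 and Psmb4 led it, and Psmd14, Psmd8 and Psmc6 closed it at percentiles of 85.0, 84.6 and 82.0. Heat shock proteins had a median percentile of 94.7. Hspa8, the constitutive chaperone, gave 6.46, 6.15 and 6.29, and Hsp90ab1, Dnajb1 and Cryab followed. Hspa13, Hspa2 and Hspb7 were lowest, Hspb7 at -4.51, -4.85 and -5.21. The general cytoskeleton had a median percentile of 96.1 and 18 of 31 strong, with Tuba1b (6.71, 6.42 and 6.69), Cfl1, Pfn1 and Actg1 highest and Pfn2, Myh10 and Lmnb1 lowest.

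Nuclear genes of oxidative phosphorylation were well above background in 70 of 70 cases, with a median percentile of 94.6 and 29 strong. Cox4i1 (5.92, 5.52 and 5.96) and Cox8a (5.69, 5.62 and 5.70), subunits of cytochrome oxidase, and the ATP synthase subunits Atp5g2 and Atp5h were highest. Sdhc, Ndufs8 and Sdhd were lowest, at percentiles of 84.8, 84.7 and 80.4. The isoforms of cytochrome oxidase that adult muscle and heart use ranked lower: Cox7a1 gave 1.15, 0.72 and 1.0, Cox8b -0.62, -1.14 and -0.86, and Cox6a2 -2.82, -3.82 and -2.96. Glycolysis was split, with a median percentile of 67.8. Gapdh (6.78, 6.55 and 6.87), Aldoa, Pkm2 and Hk1 were strong, while Pgk2, the testis isoform of phosphoglycerate kinase, and Slc2a2, the glucose transporter of liver, were not well above background on any array and Pklr on some only. Redox genes and metallothioneins had a median percentile of 83.0. Cat (catalase) ranked at 99.1 through a shared-sequence probe and at 75.9 without it, Sod1, Mt2 and Prdx5 came next, and Gclm, Nqo1 and Gpx2 were lowest.

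**Figure D4:**
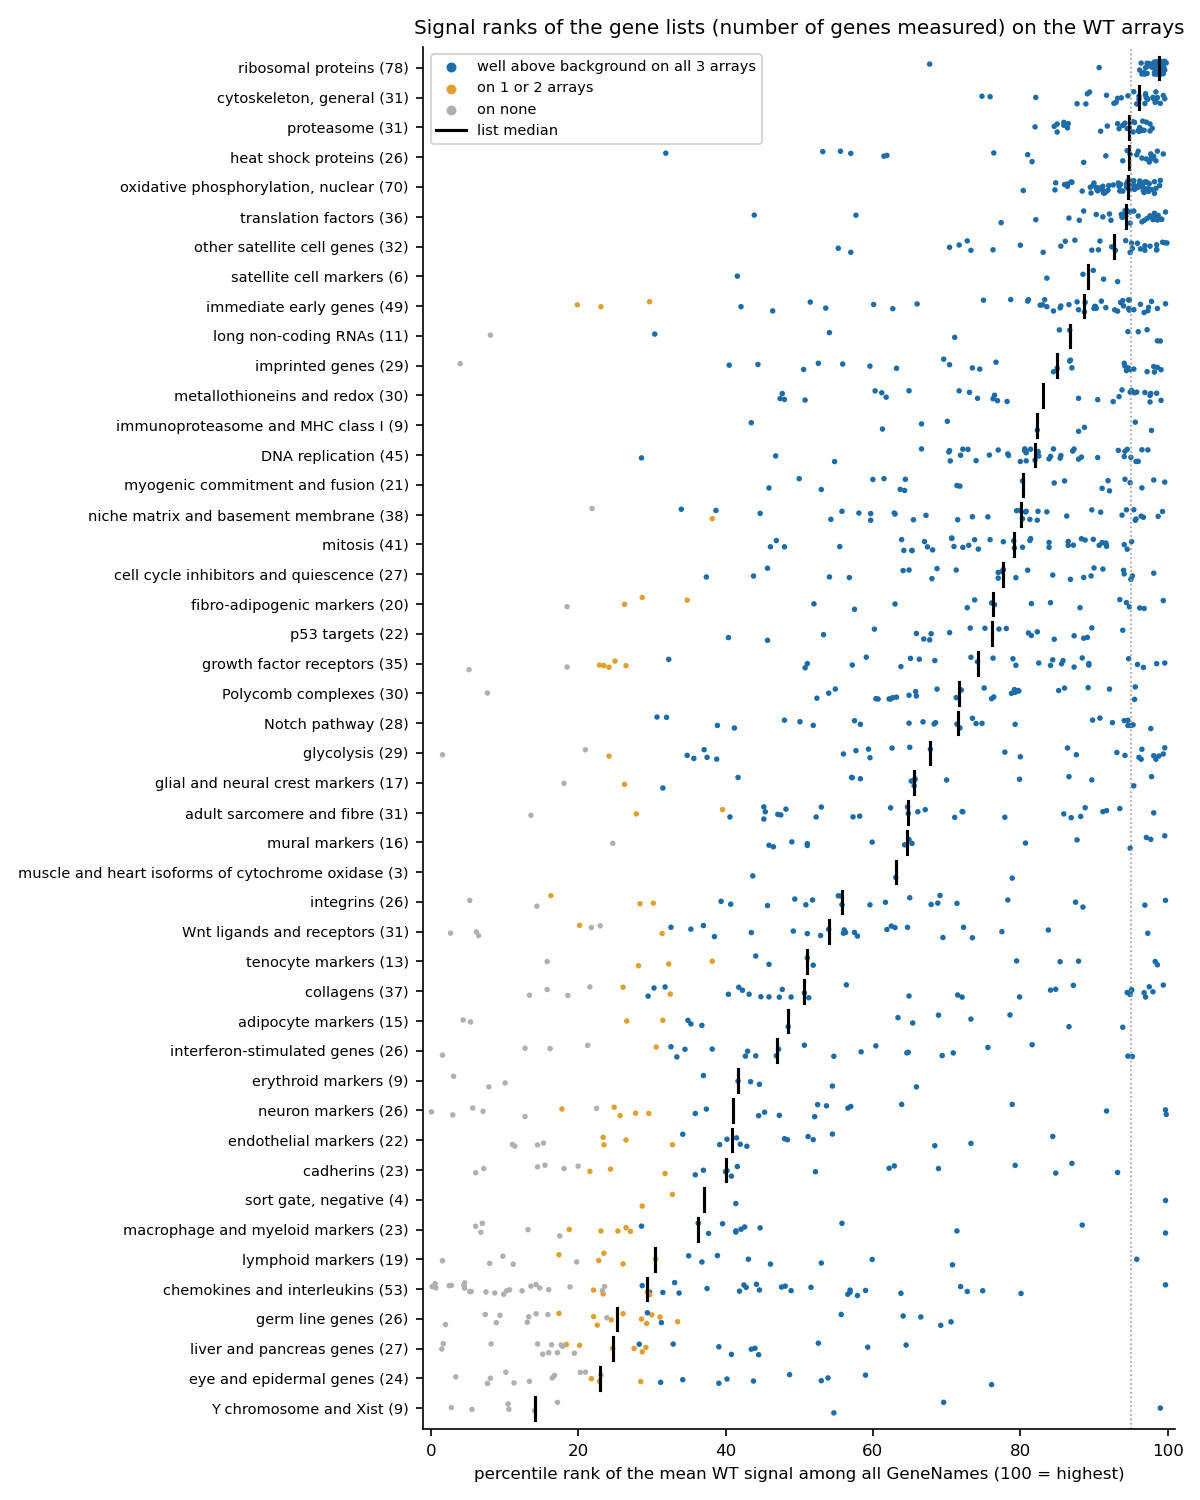
Percentile rank of the mean WT signal for every measured gene of the 46 lists, ordered by list median (black bar); colours give well above background on all 3 arrays, on 1 or 2, or on none, and the dotted line marks the top 5%. Ribosomal proteins cluster at the right (median 98.7), and lists for other tissues, such as germ line (25.3) and eye and epidermal genes (23.0), spread to the left with most of the grey points.

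Genes of muscle commitment were measured beside those of rest. The commitment and fusion list had 21 of 21 well above background on all arrays and a median percentile of 80.3. Mef2a, a muscle transcription factor, gave 6.63, 6.63 and 6.53, though its 2 probes lay 9.54 log2 units apart. The words of the brighter probe together occurred under 13 other GeneNames. Cdkn1c gave 5.18, 4.87 and 5.25, and Cdon, a cell surface co-receptor of myoblasts, gave 4.16, 4.43 and 4.09. Myog, which drives differentiation, gave 3.11, 2.65 and 3.09 through a single probe with no shared word. Myod1 gave 2.95, 2.76 and 3.05, but its 1 probe was a shared-sequence probe. Myf6 gave -2.35, -1.87 and -2.0, Jam2 -2.19, -2.33 and -2.79, and Mef2c -4.05, -2.75 and -2.03. The adult fibre list had a median percentile of 64.7, equal to that of the median detected GeneName, with 28 of 31 well above background on all arrays. Atp2a1, the calcium pump of fast fibres, gave 5.19, 4.89 and 5.18, and Tnnt1, Tpm1 and Tpm2 followed. Tnni1 gave 0.06, -1.48 and 1.5, with replicate 2 the lowest, as it was for Mb, Myl1, Myl2 and Tnni2. At the bottom, Mylpf, the light chain of fast myosin, was not well above background on any array, and Ckm (muscle creatine kinase) and Mybpc2 on some only.

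Genes of division gave signal in these cells. All 45 DNA replication genes were well above background on all 3 arrays, with a median percentile of 82.0, as were all 41 mitosis genes, with a median of 79.1, where 70.6% of all GeneNames were. Lig1 (DNA ligase, 4.63, 4.48 and 4.89), Uhrf1, Gins3 and Mcm4 led the first list, and Tyms, Orc1 and Ccne2 were lowest, Ccne2 at -5.32, -5.03 and -5.79. Hmmr (3.71, 3.70 and 3.90), Birc5, Mki67 (3.22, 3.56 and 3.58) and Ube2c led the second. Its lowest were Cdc25c, Cenpf and the kinase Aurkb (-3.14, -2.93 and -2.68). The median deviation of the mitosis list was -0.14, 0.01 and 0.18 on replicates 1, 2 and 3. What share of cells was cycling was not measured.

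Inhibitors of the cell cycle and quiescence genes ranked close to these lists, with 27 of 27 well above background and a median percentile of 77.7. The list also held D-type cyclins, which drive cells out of the G1 phase and are no inhibitors. Cdkn1c (p57), an inhibitor, was the highest at 98.1, but the next were the cyclins Ccnd3 (3.93, 3.68 and 3.72) and Ccnd1 (3.65, 3.83 and 3.74), followed by the transcription factor Foxo1. Cdkn1b (p27) gave 2.39, 2.76 and 2.22 and Cdkn1a (p21) 2.57, 2.21 and 2.12. The lowest were Ccng1, Foxo4 and Cdkn2a, the last at -4.28, -4.23 and -3.64, a percentile of 37.4. Cdkn2a encodes p16 and Arf, which Polycomb proteins keep silent in young tissue. The list of p53 targets, which also held the p53 gene itself (Trp53), had 22 of 22 well above background, a median percentile of 76.1 and none strong. Trp53 was the highest, followed by Aen, Bax and Cdkn1a, and Tnfrsf10b, Ccng1 and Fas were lowest.

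Polycomb genes had a median percentile of 71.7 with 29 of 30 well above background on all arrays. The histone-binding proteins Rbbp4 (3.85, 3.99 and 3.85) and Rbbp7 (3.86, 3.81 and 3.99) were the only strong members, followed by Cbx6 and by Ezh1 (2.43, 2.57 and 2.20), a methyltransferase of complex 2. Ezh2, its counterpart in dividing cells, gave -1.10, -1.09 and -0.58. Bmi1, the subunit of complex 1 deleted elsewhere in the series, gave 0.40, 0.61 and 0.48, a percentile of 75.1. Pcgf6, Phf19 and Cbx8 were lowest, and Cbx8 was not well above background on any array.

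Notch genes, which hold satellite cells at rest, were all 28 well above background with a median percentile of 71.6. Among the receptors, Notch3 (4.85, 4.98 and 4.72) and Notch2 (3.65, 3.96 and 3.58) were strong, Notch1 gave 3.57, 3.27 and 3.53, and Notch4 gave -1.65, -2.54 and -2.43. The nuclear partner Rbpj gave 3.90, 3.59 and 3.94. Among the Hes and Hey genes of the list, not all of which are effectors of Notch, Hes6 gave 4.12, 3.03 and 3.68. Hes6, Hey1 (3.71, 3.62 and 3.49) and Heyl (2.93, 2.71 and 2.45) ranked above Hes1 (0.10, 0.57 and 0.24) and Hey2 (-5.15, -4.99 and -4.40). The ligands were lower, with Jag1 at -0.13, 1.29 and 0.22, Dll1 at -0.16, 0.26 and 0.21 and Dll3 at -4.46, -5.64 and -5.04. Lfng, a modifier of the receptors, ranked at 38.9. Wnt genes had a median percentile of 54.0: the receptors Lrp6 (4.77, 4.49 and 4.72), Fzd4, Fzd2 and Lrp5 were highest, and 5 ligands, Wnt2, Wnt3, Wnt3a, Wnt9b and Wnt10b, were not well above background on any array. Growth factor receptors had a median percentile of 74.2, led by Fgfr1, Fgfr4, Tgfbr3 and Egfr, with Pdgfra and Erbb4 among the lowest.

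Immediate early genes, which cells switch on within minutes of a stimulus, had a median percentile of 88.7 with 46 of 49 well above background on all arrays. Fosb gave 6.80, 6.75 and 7.02 through its only probe, which shared no word with another GeneName. Egr1 gave 5.41, 5.55 and 5.50, Jun gave 4.83, 4.96 and 5.03, and Jund gave 4.61, 4.88 and 4.57. These 4 genes were strong on every array. The lowest, Ier5, Fosl1 and Egr4, were well above background on some arrays only, and Egr4 gave -7.85, -4.63 and -8.01.

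Matrix genes spanned nearly the whole range. Of 37 collagens, 31 were well above background on all arrays and 7 strong, against 70.6% and 5% of all GeneNames. Their median percentile was 50.7. Col3a1 and the microfibrillar Col6a2 (5.08, 5.05 and 5.06) and Col6a1 led them, with Col5a1 next, and Col2a1, Col11a1, Col13a1 and Col28a1 were not well above background on any array. Basement membrane and niche genes had a median percentile of 80.1, with Sparc (6.12, 6.09 and 6.09), Hspg2 (perlecan), Lama2 and Lamc1 highest. Lama1, the embryonic laminin chain, was not well above background on any array, and Fmod and Spp1 were also low. Of 26 integrins, Itgb1, Itga7 and Itga6 (1.99, 1.97 and 2.39) followed the Itgam repeat probe, and Itga4, Itgad and Itgax were lowest. Among 23 cadherins Cdh15 was the highest, then Cdh13, Cdh2 (1.56, 1.88 and 1.74) and Cdh11, and Cdh1, Cdh10 and Cdh12 were among 6 not well above background on any array.

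Imprinted genes and long non-coding RNAs ranked high, with median percentiles of 85.0 and 86.7. Gnas (5.86, 6.03 and 5.88) was the highest imprinted gene through 1 of 4 probes that lay up to 9.12 log2 units apart, followed by H19, Plagl1 (5.12, 5.38 and 5.13) and Cdkn1c. Magel2, Nespas and Phlda2 were lowest, and Phlda2 was not well above background on any array. Besides Xist, the non-coding list held H19 at 5.58, 5.23 and 5.41, Meg3 at 4.70, 4.70 and 4.48, Gas5 at 4.12, 3.92 and 4.18, and Airn at 3.42, 3.83 and 3.53. Kcnq1ot1, Snhg3, Ftx, Dleu2 and Snhg11 were lower, at percentiles of 86.7, 85.3, 71.1, 54.1 and 30.4, and Snhg12 was not well above background on any array. The antigen presentation genes H2-D1 (5.04, 4.84 and 4.92) and H2-K1 (4.02, 3.91 and 3.75) were strong. Psmb10, Tapbp and B2m had percentiles of 88.7, 87.9 and 82.3, and Psmb8, Tap2, Psmb9 and Tap1 had 70.1, 66.6, 61.3 and 43.5. Interferon-stimulated genes had a median percentile of 47.0, with Ifitm2, Ifitm3, Irf1 and Irf9 highest and Mx1, Oas1a, Oas3 and Ifit1 not well above background on any array.

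Families of other tissues filled the low end. Chemokines and interleukins had a median percentile of 29.4, and 23 of 53 were not well above background on any array, against 21.1% of all GeneNames. Cxcl11 (7.07, 6.95 and 7.05) was the exception at the top. The words of its probe together occurred under 19 other GeneNames, below the repeat limit. Cxcl1, Ccl25 and Cxcl12 came next, while Il13, Il17a and Ccl20 were at background. Germ line genes had a median percentile of 25.3, liver and pancreas genes 24.7 and eye and epidermal genes 23.0, with 9 of 26, 11 of 27 and 11 of 24 not well above background on any array. Some members were not at background: Nlrp5, Gdf9, Sycp3 and Prm2 of the germ line, Ins2 (-0.64, -0.52 and -0.97), Ins1, Apoc3 and Ctrb1 of liver and pancreas, and Krt10 (0.73, 0.77 and 0.34), Opn1sw, Cryga and Krt14 of eye and epidermis. At background in the same lists were Dazl, Acrv1 and Spo11, then Alb (albumin), Cela2a and Fgg, and Sprr1b, Rcvrn and Lce1a1. Neuron markers had a median percentile of 40.9. Cplx2 and Snap25 led them through tandem repeat probes. Without repeat probes Cplx2 still ranked at 99.8, though its 5 probes lay up to 7.0 log2 units apart, and Snap25 had no probe left. Elavl4 (3.07, 2.79 and 2.78) and Mtap2 followed, but the 2 probes of Elavl4 lay 10.91 log2 units apart. Nefl, Gad1 and Slc17a6 were at background.

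Families named by symbol alone gave the same poles. Symbols were grouped by the letters before the first digit, which gave 340 stems of at least 8 GeneNames and 8594 GeneNames in all. The stems with the highest median percentile were Rpl at 98.4, Eef at 98.3, Rps at 97.9, Psmb at 96.0, Ndufb at 94.8, Psma at 94.5, Cct (a chaperonin) at 93.9, Csnk (casein kinases) at 93.2, Ndufa at 92.7, Tubb at 92.1, Ndufs at 90.7 and Srsf (splicing factors) at 90.6. In Rpl 51 of 61 GeneNames were strong, and in Rps 31 of 45. The lowest were Sprr (epidermal envelope proteins) at 5.3, Mageb at 9.6, Prl (prolactins) at 9.7, Ces at 10.2, Vmn (vomeronasal receptors) at 10.4, Klra at 10.5, Spink, Sult and Mrgpra at 11.6, Tmprss at 11.9, Olfr (odorant receptors) at 12.1 and Ceacam at 12.3. Of 1092 Olfr GeneNames 814 were not well above background on any array, and of 256 Vmn GeneNames 200 were not, while 166 and 40 were well above background on all 3 arrays.

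The spread between the arrays was small for most genes. Over 25678 GeneNames whose chosen probe was well above background on all 3 arrays, the median SD was 0.195, with quartiles of 0.117 and 0.320. Repeat spots of a probe within an array had an SD of 0.0642, 0.0565 and 0.0587. As an SD per array from pairwise differences, replicates 1 and 3, which shared a slide, gave 0.221, replicates 1 and 2 gave 0.226 and replicates 2 and 3 gave 0.253. Pearson r over these GeneNames, which are not independent, was 0.9876, 0.9882 and 0.9861 for the same pairs. Sharing a slide thus went with a spread close to that of replicates 1 and 2. The spread fell with signal, from a median SD of 0.351 below the 40th percentile to 0.109 in the top 5%, and 8.84% of GeneNames ranged over more than 1 log2 unit.

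**Figure D5:**
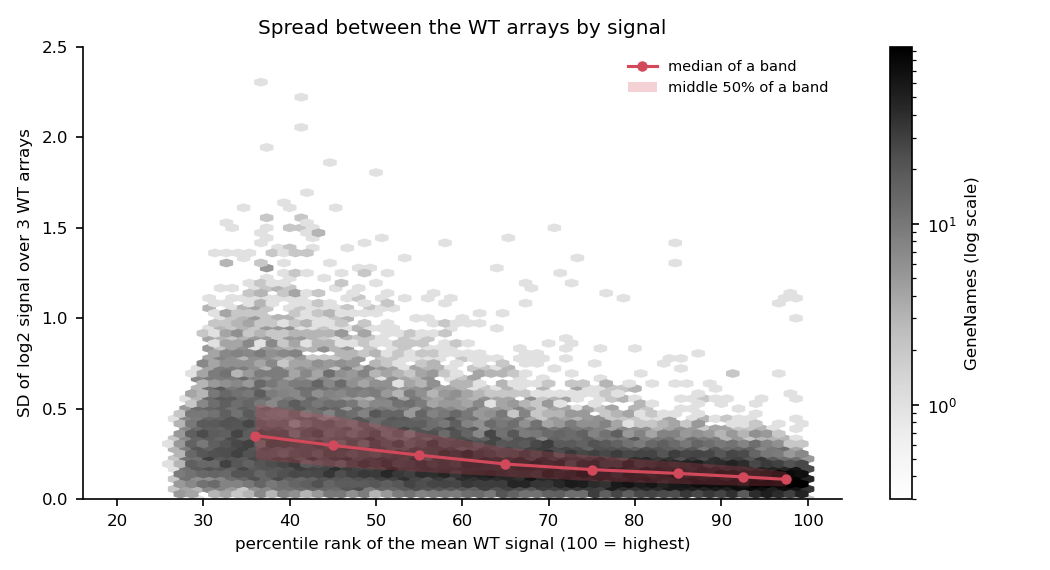
SD of the log2 signal over the 3 WT arrays against percentile rank of the mean signal for GeneNames well above background on all arrays; grey hexagons count GeneNames on a log scale, and the line and band give the median and middle 50% in bands of rank. The median falls from 0.351 to 0.109 towards high signal, and a small set near the right edge has an SD of about 1.01 to 1.14.

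A range of over 2 log2 units was seen in 172 GeneNames (0.67%). The 20 with the largest SD had low signal, with percentiles of 33.0 to 50.2. Adra2c, an adrenergic receptor, gave -5.26, -5.76 and -1.55, with replicate 3 the high one. Gm5632 gave -0.99, -5.07 and -4.60, with replicate 1 the high one, and 4732415M23Rik gave -2.40, -5.93 and -2.30, with replicate 2 the low one. Cd74, the invariant chain of antigen-presenting cells, gave -4.11, -3.94 and -1.22, and Kcna6, a potassium channel, gave -1.55, -1.21 and -4.50. Cyp1b1, a cytochrome P450, gave -5.28, -2.46 and -2.81. The others were Gm1078, Ntsr2, Slc35f3, Xlr4a, Dbh, Grip1, Sema4g, Cyp26b1, Gm6934, Procr and 4 intergenic regions, on chromosomes 4, 9, 10 and 13.

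Among GeneNames with a percentile above 75, a set chosen after the values were seen, several of the largest SDs had another shape. Angptl4, an inhibitor of lipoprotein lipase that responds to fasting, gave 0.05, 2.34 and 2.69, with replicate 1 the low one. Zbtb16, a transcription factor induced by glucocorticoids, gave 0.32, 1.69 and 2.95. For both genes replicate 1 was the lowest and replicate 3 the highest. The opposite order was seen in 5 predicted transcripts with strong signal, 4 near the start of chromosome 9 and 1 on chromosome 2. The transcript ENSMUST00000099683 (probe at chr2:98507014-98507072) gave 7.20, 5.76 and 5.05, ENSMUST00000099050 (probe at chr9:3003722-3003781) gave 7.03, 5.74 and 5.04, and ENSMUST00000099037 gave 6.14, 4.85 and 3.87. Others followed neither order, such as Galntl4 at 0.17, -0.13 and 1.98, with replicate 2 the lowest. Replicates have no order of their own, so such runs only say which arrays were high.

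Promoters were compared by signal band for 12910 genes of RefSeq mRNAs whose symbol matched 1 promoter in RefSeq's GRCm38.p6 table, after repeat probes were left out. Over the 250 bases before the start, the median number of CG pairs was 16 in strong genes, 17 in other genes of the upper side of those well above background, 10 in weak genes, 4 in genes above background on 1 or 2 arrays and 2 in genes at background. The promoter windows of Tpt1, Pax7 and Il7r, picked after their values were seen, show what many and few CG pairs look like, with each CG in capitals.
Tpt1, chr14:75845006-75845255, plus strand: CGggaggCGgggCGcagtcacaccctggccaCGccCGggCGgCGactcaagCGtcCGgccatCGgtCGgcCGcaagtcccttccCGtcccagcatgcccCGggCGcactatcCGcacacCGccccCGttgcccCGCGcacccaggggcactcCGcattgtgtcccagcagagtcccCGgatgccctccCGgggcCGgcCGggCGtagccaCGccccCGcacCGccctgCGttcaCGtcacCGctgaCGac
Pax7, chr4:139832969-139833218, minus strand: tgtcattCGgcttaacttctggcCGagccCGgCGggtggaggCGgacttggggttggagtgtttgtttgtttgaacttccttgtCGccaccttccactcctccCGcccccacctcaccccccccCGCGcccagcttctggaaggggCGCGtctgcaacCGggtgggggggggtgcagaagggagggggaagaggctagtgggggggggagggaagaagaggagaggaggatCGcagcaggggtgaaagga
Il7r, chr15:9529877-9530126, minus strand: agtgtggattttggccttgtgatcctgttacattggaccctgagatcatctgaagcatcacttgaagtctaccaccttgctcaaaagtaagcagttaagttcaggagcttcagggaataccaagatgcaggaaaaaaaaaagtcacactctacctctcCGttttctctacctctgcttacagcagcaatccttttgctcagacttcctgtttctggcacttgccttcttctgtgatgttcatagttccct
The window of Tpt1, a strong gene, held 33 CG pairs, well above the strong band's median of 16, that of Pax7 held 13, and that of Il7r, which was not well above background on any array, held 1. The motif TATAAA, searched on the strand of the gene and lying wholly within 45 to 16 bases before the start, was found in 4.3% of strong genes, 1.2% of the next band, 3.3% of weak genes, 5.1% of genes above background on 1 or 2 arrays and 5.8% of background genes. It was in 3.3% of the 12910 genes and in 2.6% of 22855 promoters in the table. The share was lowest in the band just below the strong genes, where the count of CG was highest. A match is a description of these letters and says nothing of a factor's binding.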

How the data were processed

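Gene expression was measured on 3 WT arrays of sorted satellite cells. The authors deposited spot intensity from Agilent Feature Extraction 10.7.3.1, per the file headers background-subtracted, with dim values replaced by a small surrogate and no normalization between arrays. They also deposited a table of processed values, log2 by its range, whose columns share a median of 7.806. It matched normexp values of the same arrays (r from 0.9996 to 1.0000, each column best with its own array). How that table was made is not stated in any source used here, and it served as an alternative.

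Values were expressed as log2 of processed signal, less the 75th percentile of the non-control spots of each array. Between 93 and 128 spots of an array carried an outlier mark and were dropped, spots of the same probe were averaged, and each GeneName took its probe with the highest mean. Well above background is the scanner software's own mark. With 1 group there was no test. The number of arrays limits the precision. Python 3.11.15 with pandas 2.3.3, numpy 2.4.6 and matplotlib 3.10.9, and limma 3.58.1 in R 4.3.3 (normexp), were used. The ranking was tested on simulated data.

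Lists of 1277 entries were matched by GeneName (1244) or RefSeq synonym (10), and 23 had no match. The members and the lists were chosen with earlier results of these data known. Named genes were the 25 highest, the 20 with the largest SD, every gene of lists of up to 12, the 4 highest and 3 lowest of longer lists with those at background where 5 or fewer, and the 12 highest and 12 lowest symbol stems. Other genes were named after their values were seen, and a few genes under the rule are not reported here. Coordinates of probes are mm9, those of promoters GRCm38.p6.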

Additional observations from a re-analysis of the deposited data

How the results depend on the processing

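The count of GeneNames not well above background on any array fell from 7666 to 3178 when the scanner software's looser mark (positive and significant) was used. The median SD of 0.195 became 0.165 with normexp and an offset of 50, 0.158 in the authors' processed values and 0.222 over all GeneNames, dim ones included. With 1 replicate left out it ran from 0.15 to 0.172, over 2 arrays only. The number of lists with a median above the 75th percentile, a summary defined after the data were seen, was 20 and became 13 when ranks were taken among GeneNames well above background on all arrays alone, which are brighter by construction and leave fewer members in a list. Under that ranking list medians moved by -21.1 to 42.7, and 27 of 46 by more than 5 points: macrophage and myeloid markers fell from 36.3 to 18, erythroid markers from 41.7 to 20.6 and Myf5 from 41.6 to 17.2, while the negative gate rose from 37.1 to 58.3 and germ line genes from 25.3 to 49.2. It stayed at 20 under the other alternatives run. The count well above background on all arrays ran from 25904 to 26464 with 1 replicate left out. Leaving out repeat probes, an alternative chosen after seeing the data, moved list medians by -4.9 to 1.4. No paired analysis was possible because only 1 group was used. Dim signals limit the ranking, since surrogate values have no order, and 3 arrays limit every SD.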
